A study of Mus musculus with 2 samples.

Results

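Tfap2d and Tfap2b are neighbouring genes on mouse chromosome 1 that encode transcription factors of the AP-2 family. Both names were chosen by their locus, an interval of 220 kb from 19050000 to 19270000, because earlier results of these libraries had shown separate MTF2 and JARID2 blocks there. The pair stands for 2 of the 21896 protein-coding genes of the RefSeq table of GRCm38.p6, and the locus for 220 of the 2539671 bins of 1 kb that held a read in either library. All read counts and folds over the locus belong to the measure that chose it, so they are given as a description and no test was made on them. The factors were profiled by ChIP-seq, which pulls down a protein with an antibody and sequences the DNA attached to it, with 1 library each. Both came from embryonic stem (ES) cells of strain 129SvJae x C57BL/6 at passages 10 to 15, grown off feeders for the last 2 to 3 passages. The labels differ by antibody alone, while reads were 52 bp long in MTF2 and 36 bp in JARID2. No replicate, input or control antibody was analysed here. The libraries held 8946204 MTF2 and 12900993 JARID2 reads after repeat reads were removed, and intervals given below are exact 95% intervals for counting error only.

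Polycomb repressive complex 2 (PRC2) places repressive methyl marks on histones, and in ES cells it is known for covering CpG-rich starts of silent developmental genes. MTF2 is a Polycomb-like subunit that binds DNA and helps hold the complex there, and JARID2 is a Jumonji-family partner without demethylase activity that binds both PRC2 and DNA. AP-2 factors are regulators of developing ectoderm. Tfap2b is known for roles in neural crest derivatives and kidney, and Tfap2d for expression in the developing midbrain and retina. In the RefSeq table no other protein-coding gene lies between the pair, Defb41 comes before Tfap2d, and Pkhd1, the gene of a kidney cilium protein, comes after Tfap2b. The other family members, Tfap2a, Tfap2c and Tfap2e, lie on chromosomes 13, 2 and 4 and were not analysed here.

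The gene starts used for orientation were 19093000 for Tfap2d and 19199000 for Tfap2b, both approximate and given with the locus, not read from an annotation. The highest read end on chromosome X was 165556469, which is the length of that chromosome in mouse build NCBI 36 as recalled, so the reads appear to be on that build. The build of the gene starts is not given in the sources used here. A distance between a block and a start can therefore hold an offset between builds, which cannot be told apart from a real distance, and no bin could be assigned to an exon, intron or UTR. The labelled cell type could not be checked, since ChIP reads carry no expression, and transcripts of either gene were not measured.

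The start regions of both genes are shown as RefSeq gives them on the plus strand of GRCm38.p6, 250 bases before to 50 bases after a start, because CpG dinucleotides bear on where PRC2 is known to sit. CpG dinucleotides are in capitals. These coordinates are on another build than the reads and are not to be set against the positions of the blocks. The first line is the first of 3 listed Tfap2d starts at chr1:19102772-19103071, the next is the last of them at chr1:19103883-19104182, and the last line is the single listed Tfap2b start at chr1:19211804-19212103.
Tfap2d, first start: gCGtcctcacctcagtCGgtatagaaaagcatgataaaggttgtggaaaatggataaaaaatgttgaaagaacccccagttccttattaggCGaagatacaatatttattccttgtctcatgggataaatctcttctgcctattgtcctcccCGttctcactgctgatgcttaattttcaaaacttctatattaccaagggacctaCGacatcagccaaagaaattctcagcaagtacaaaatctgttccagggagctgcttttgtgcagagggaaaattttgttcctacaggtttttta
Tfap2d, last start: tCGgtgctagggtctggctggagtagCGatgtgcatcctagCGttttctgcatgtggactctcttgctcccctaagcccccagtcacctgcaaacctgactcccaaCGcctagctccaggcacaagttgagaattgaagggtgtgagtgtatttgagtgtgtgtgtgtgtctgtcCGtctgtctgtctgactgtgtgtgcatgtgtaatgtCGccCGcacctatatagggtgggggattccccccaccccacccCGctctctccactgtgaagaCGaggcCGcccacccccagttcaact
Tfap2b: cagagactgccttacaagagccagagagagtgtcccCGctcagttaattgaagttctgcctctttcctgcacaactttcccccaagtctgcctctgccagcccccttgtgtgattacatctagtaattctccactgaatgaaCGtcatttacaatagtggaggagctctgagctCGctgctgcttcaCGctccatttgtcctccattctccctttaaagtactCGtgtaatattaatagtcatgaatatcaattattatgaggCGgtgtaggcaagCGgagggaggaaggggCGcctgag
The first Tfap2d window holds 5 CpG and has a GC content of 39.7%. The last Tfap2d window holds 10 CpG at 56.7% GC, and the Tfap2b window 8 CpG at 48.3% GC. Over all 32851 RefSeq windows of this length the median was 7 CpG, with quartiles of 3 and 20, and a GC content of 52.7%. As many CpG as in these windows, or more, were held by 62.0%, 43.5% and 48.7% of all windows in the same order. These start windows thus lie near the middle of all promoters in CpG content, and they say nothing of CpG further from the starts. The AP-2 recognition motif GCCNNNGGC, which reads the same on both strands, was found in none of the 4 listed windows of the pair and in 16.6% of all windows.

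Signal over the locus was split into 3 wide blocks and 3 narrow sites, separated by long stretches near background. The number of blocks ran from 5 to 7 over the alternative settings. A fold is the count of a bin divided by the count expected on chromosome 1, namely 3.51 MTF2 reads or 4.25 JARID2 reads per bin. Bins were called at 5-fold or more by a rule run over the whole genome, and called bins of either library at most 1 kb apart were joined into a block. JARID2 was called in 25 of 220 bins, where 1.88% of all bins in the genome were called. MTF2 was called in 15, where 0.193% were called genome-wide, and 14 of these were called in both, against 0.134% of all bins. As the locus was chosen for its blocks, nothing is read from these differences. The lowest called bins held 18 MTF2 reads (5.13-fold) and 23 JARID2 reads (5.41-fold), and the highest bins that missed the threshold held 16 MTF2 reads (4.56-fold) and 21 JARID2 reads (4.94-fold). Called bins were sparse on either side. In the 1 Mb before the locus and the 1 Mb after it, 0 of 999 and 0 of 995 bins were called in MTF2, and 4 and 6 bins in JARID2.

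**Figure D1:**
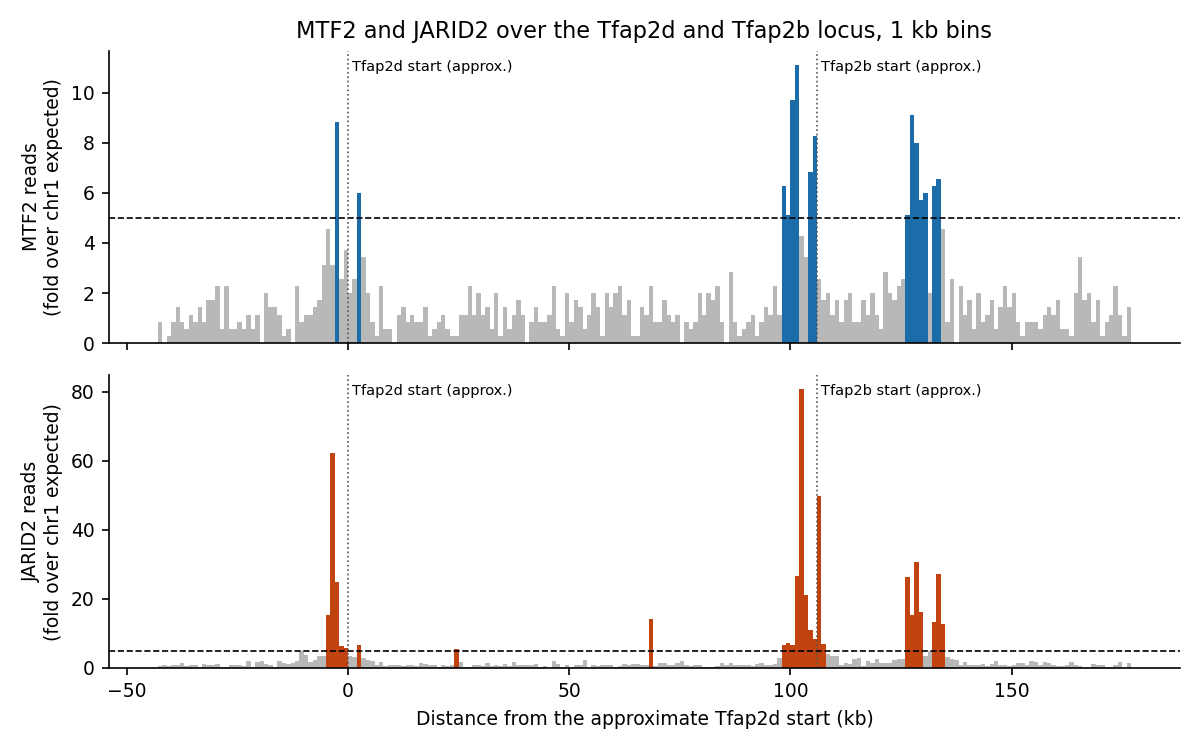
Fold over the expected count in each 1 kb bin for MTF2 (upper panel) and JARID2 (lower panel), by distance in kb from the approximate Tfap2d start. Coloured bars are called bins, grey bars are uncalled, the dashed line is 5-fold and dotted lines mark the approximate gene starts. JARID2 reached 62.1-fold before the Tfap2d start and 80.7-fold before the Tfap2b start, while MTF2 stayed at or below 11.1-fold.

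The Tfap2d block, from 19088001 to 19093000, was strongly raised in JARID2 and moderately in MTF2. It held 487 JARID2 reads, 22.9-fold over expected (20.9 to 25.1), and 80 MTF2 reads, 4.56-fold (3.62 to 5.68). The JARID2 reads of its 5 bins numbered 65, 264, 106, 27 and 25 in coordinate order. The MTF2 reads numbered 16, 11, 31, 9 and 13. The JARID2 signal was concentrated in the second bin, at 62.1-fold, which took 54.2% of the reads of the block. MTF2 was highest in the next bin, at 8.84-fold, and that was the only bin of the block called in MTF2. All 5 bins were called in JARID2. Ahead of the block, JARID2 also reached 4.94-fold from 19082001 and 3.77-fold from 19083001, in bins that were not called.

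The highest 200 bp step of JARID2 in the Tfap2d block, from 19089801 to 19090000, held 102 reads, or 120-fold. It lay 3100 bp before the approximate Tfap2d start. Only 2 MTF2 reads fell in that step (2.85-fold), and the highest MTF2 step, with 12 reads or 17.1-fold, lay 800 bp further on. After the block came a gap of 2 kb that stayed above background, at 2.28-fold (1.30 to 3.70) in MTF2 and 3.18-fold (2.09 to 4.62) in JARID2. It led to the first narrow site.

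The Tfap2b block, from 19191001 to 19201000, was 10 kb wide and held the approximate start of its gene. It had 955 JARID2 reads, 22.5-fold over expected (21.1 to 23.9), and 208 MTF2 reads, 5.93-fold (5.15 to 6.79). The intervals of the JARID2 folds at both genes overlapped. In the first 3 bins JARID2 held only 28, 30 and 28 reads, or 6.59, 7.06 and 6.59-fold. MTF2 held 22, 18 and 34 reads there, or 6.27, 5.13 and 9.69-fold. Similar folds in both libraries also occurred inside the block, with 8.27-fold MTF2 and 8.47-fold JARID2 in the bin from 19198001.

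JARID2 in the Tfap2b block then formed a pair of peaks. The bin from 19194001 held 113 reads, and that from 19195001 held 343 reads, 80.7-fold, the highest of the locus. After bins of 90, 46 and 36 reads, a further peak of 212 reads (49.9-fold) stood in the bin from 19199001, and the last bin held 29. In 200 bp steps the peaks reached 131-fold (111 reads, from 19195001) and 113-fold (96 reads, from 19199401), 4400 bp apart. The earlier of them lay 3900 bp before the approximate Tfap2b start and the later one 500 bp after it.

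MTF2 in the Tfap2b block did not follow those peaks. It was highest in the bin from 19194001, with 39 reads or 11.1-fold (7.90 to 15.2), and dropped to 15 reads, 4.28-fold (2.39 to 7.05), in the adjoining bin that was highest in JARID2. It stood at 24 and 29 reads, 6.84 and 8.27-fold, in the bins from 19197001 and 19198001 between the JARID2 peaks. It was 9 reads, 2.57-fold (1.17 to 4.87), at the later JARID2 peak and 6 reads in the last bin. Of the 10 bins, 6 were called in MTF2 and 10 in JARID2.

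The downstream block, from 19219001 to 19228000, lay beyond the Tfap2b start by a middle distance of 24.5 kb. Whether it falls in the body of Tfap2b or after it was not analysed here. It held 638 JARID2 reads, 16.7-fold over expected (15.4 to 18.0), and 187 MTF2 reads, 5.92-fold (5.10 to 6.83). Its MTF2 level differed from that of the Tfap2b block by less than counting error, while its JARID2 interval lay below those of the other wide blocks. That lower JARID2 level includes 2 bins not called in JARID2, which MTF2 calls joined to the block. Its JARID2 regions taken alone were 22.1-fold, from 19219001 to 19223000, and 17.7-fold, from 19225001 to 19228000. The 9 bins held 112, 65, 130, 69, 15, 21, 57, 115 and 54 JARID2 reads and 18, 32, 28, 20, 21, 7, 22, 23 and 16 MTF2 reads, in coordinate order. JARID2 fell to 3.53-fold in the bin from 19223001, where MTF2 was still called at 5.99-fold. This was the only bin of the locus called in MTF2 and not in JARID2.

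JARID2 had 3 separate peaks in the downstream block, of 64.7, 100.02 and 57.7-fold in their highest 200 bp steps, 2600 and 4800 bp apart. None of its 1 kb bins passed the 30.6-fold of the bin from 19221001, so its JARID2 signal was more evenly spread than elsewhere. The highest bin took 20.4% of its JARID2 reads, against 35.9% in the Tfap2b block and 54.2% in the Tfap2d block. The coefficient of variation of JARID2 over bins was 1.01 in the Tfap2d block, 1.10 in the Tfap2b block and 0.574 downstream. That of MTF2 was 0.548, 0.522 and 0.343, lower than JARID2 in each wide block.

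**Figure D2:**
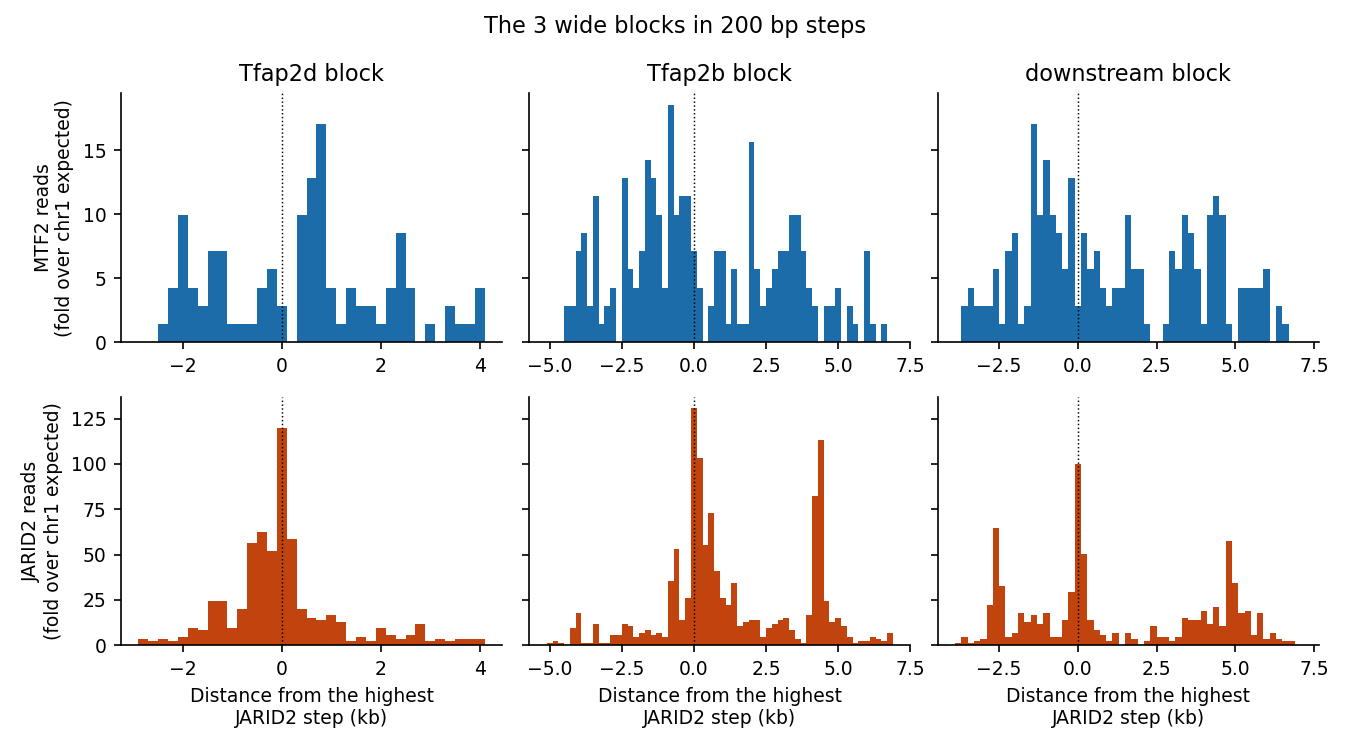
MTF2 (upper row) and JARID2 (lower row) fold over expected in 200 bp steps across the 3 wide blocks and 1 kb on either side, by distance in kb from the highest JARID2 step of each block (dotted line). JARID2 rises to 120, 131 and 100.02-fold in narrow peaks, and the highest MTF2 steps lie 800, 800 and 1400 bp from them.

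The balance between the libraries is given here as a description, since it comes from the counts that chose the locus. Reads were divided by the kept reads of their library, and the ratio of JARID2 to MTF2 was then 4.22 (3.33 to 5.42) in the Tfap2d block, 3.18 (2.74 to 3.72) in the Tfap2b block and 2.37 (2.01 to 2.80) downstream. Among the 611 blocks of 5 kb or more in the genome that were called in both libraries, the median ratio was 5.36, with quartiles of 2.15 and 8.05. By point values the 3 wide blocks thus lay below that median and above the lower quartile. The interval of the Tfap2d block reached past the median, and that of the downstream block reached below the lower quartile. These are differences between places in 1 library of each factor, and biological spread was not measured.

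By its point values, MTF2 was lowest in the steps where JARID2 was highest. In the 3 wide blocks, 16 steps of 200 bp had JARID2 at 50-fold or more, where 42 MTF2 reads gave a level of 3.74 times expected (2.70 to 5.06). In the 54 steps with JARID2 at 10 to 50-fold, MTF2 was 6.73-fold (5.93 to 7.61), and in the 50 steps under 10-fold it was 5.07-fold (4.36 to 5.88). MTF2 was above the expected count in all 3 classes. MTF2 calls helped to define the blocks, so nothing is read from that. The interval of the highest class lay below that of the middle class and overlapped that of the lowest class. The step classes were chosen after the values were seen, and the bins from 19195001, 19089001 and 19199001 had already shown the order. Those 3 bins, the highest of the locus in JARID2, stood at 4.28, 3.14 and 2.57-fold in MTF2, with a neighbouring bin at 11.1, 8.84 and 8.27-fold. Of the 10 highest JARID2 bins, 7 had less MTF2 than at least 1 of the bins beside them. The other 3, at 27.1, 26.6 and 24.9-fold JARID2, did not, with MTF2 at 6.56, 11.1 and 8.84-fold. Only the bins from 19089001, 19196001 and 19222001 were below both neighbours. How often other bins fall below a neighbour was not computed.

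MTF2 was lower at the centre than at the sides of 5 of the 6 JARID2 peaks of the wide blocks and equal at the other. Summed, the difference was within counting error. Over 1 kb centred on each peak, MTF2 was 5.08-fold (4.17 to 6.14), and over the 1 kb on each side it was 6.29-fold (5.56 to 7.10), with overlapping intervals. Side windows of the first and second peaks of the downstream block overlap from 19220401 to 19220800. The 12 and 7 MTF2 reads in the steps there were counted for both peaks. That raises the side value, and its interval is not exact. The side windows were set by distance and were not free of strong JARID2. They held steps of 56.5-fold in the Tfap2d block and 73.0-fold beside the earlier peak of the Tfap2b block. The window before the first downstream peak lay in the gap ahead of its block. Maxima in different bins were common elsewhere. Of 544 JARID2 regions of 5 kb or more in the genome with an MTF2 called bin, only 108 had their highest MTF2 and JARID2 bins in the same place (19.9%, 16.6 to 23.5). Each such region has 5 or more bins in which the maxima can lie. MTF2 was below a neighbouring bin at the highest JARID2 bin of 389 of them (71.5%, 67.5 to 75.3). A bin counts here if either of its neighbours holds more, which can occur in any bin. The share over other bins was not computed, so nothing is read from this value. The JARID2 regions of the Tfap2d and Tfap2b blocks, with maxima in different bins, are not set apart by the share of 19.9%. The downstream block was not among the 544, as its JARID2 regions were 4 and 3 kb wide. In the region of 3 kb both maxima lay in the bin from 19226001, and in that of 4 kb they lay in different bins.

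**Figure D3:**
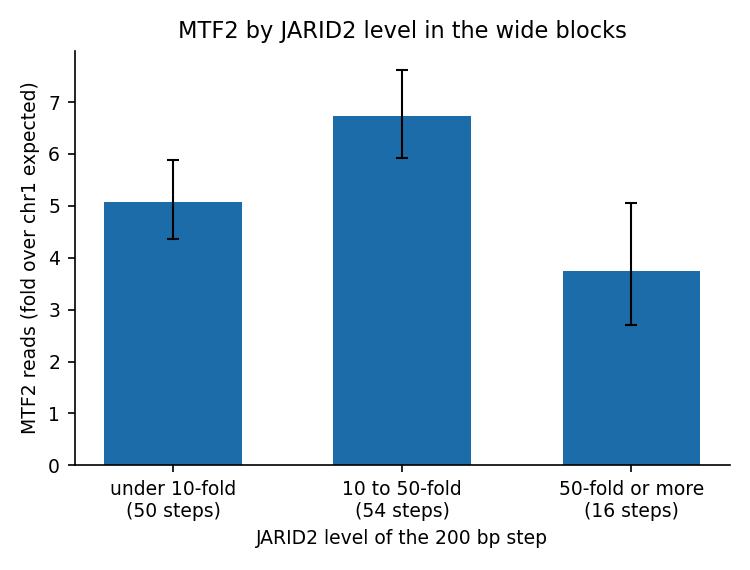
MTF2 fold over expected in the 200 bp steps of the 3 wide blocks, grouped by the JARID2 level of the step, with exact 95% counting intervals as bars. The value is 5.07-fold in steps under 10-fold JARID2, 6.73-fold in steps of 10 to 50-fold and 3.74-fold in steps of 50-fold or more.

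The 3 narrow sites were 1 kb wide each and unlike one another. The first, from 19095001 to 19096000, lay after the Tfap2d start and was called in both libraries. It held 28 JARID2 reads, 6.59-fold (4.38 to 9.52), and 21 MTF2 reads, 5.99-fold (3.70 to 9.15). Its depth-scaled ratio of 0.925 (0.507 to 1.71) was far below that of the Tfap2d block, so MTF2 and JARID2 were raised by like amounts there. MTF2 was still 3.42-fold in the bin after it, with 12 reads.

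The other narrow sites, in the long stretch between the approximate gene starts, were called in JARID2 alone. Whether they fall in the body of Tfap2d or between the genes was not analysed here. The second, from 19117001 to 19118000, held 23 JARID2 reads, 5.41-fold (3.43 to 8.12), and 1 MTF2 read, with a ratio of 15.9 (2.59 to 657). The third, from 19161001 to 19162000, held 60 JARID2 reads, 14.1-fold (10.8 to 18.2), and 8 MTF2 reads, 2.28-fold (0.984 to 4.49). The bins on either side of the third site were at background in both libraries.

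The third narrow site also differed in measures that did not choose the locus. It had 217 deposited JARID2 reads for its 60 kept reads, or 3.62 per kept read, against 1.15 in the Tfap2d block, 1.23 in the Tfap2b block, 1.15 downstream and 1.06 in uncalled bins of chromosome 1. Within 300 bp of its highest step, the median 5' end on the minus strand lay 36 bp after that on the plus strand. At the 6 peaks of the wide blocks this distance was 154 to 245 bp. JARID2 reads of opposite strands on chromosome 1 were most often paired at 200 bp, in a search that did not reach down to 36 bp. At the first narrow site the distance was 243 bp, with 5 minus-strand reads, and at the second 111 bp, with 6. These sites had 1.07 and 1 deposited JARID2 reads per kept read. A distance of 36 bp is the length of 1 JARID2 read. Of the 60 kept reads of the third site, 40 fell in 1 step of 200 bp. Repeated sequence was not analysed here, and the part of repeat reads in this site was not tested. Without it, 24 JARID2 bins and 5 blocks were left.

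**Figure D4:**
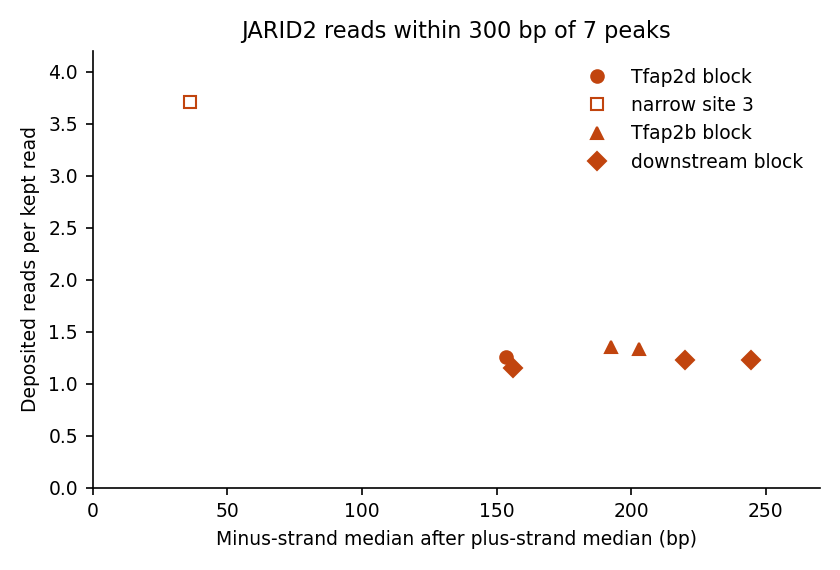
For the 7 JARID2 peaks of at least 30-fold in a 200 bp step, deposited reads per kept read (vertical axis) against the distance in bp from the plus-strand to the minus-strand median 5' end (horizontal axis), within 300 bp of the peak. The third narrow site (open square) stands at 36 bp and 3.71 reads per kept read, and the other 6 peaks at 154 to 245 bp and 1.15 to 1.35.

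The gaps fell into those near background and those between close blocks. Between the Tfap2d and Tfap2b blocks, beyond the narrow sites, the gaps of 21, 43 and 29 kb stood at 1.02 (0.801 to 1.28), 1.22 (1.05 to 1.41) and 1.12-fold (0.924 to 1.35) in MTF2. JARID2 was 1.02 (0.821 to 1.25), 0.810 (0.685 to 0.952) and 0.974-fold (0.807 to 1.16) in the same gaps. The outer gaps, of 38 kb before the Tfap2d block and 42 kb after the downstream block, were at 1.10 (0.925 to 1.29) and 1.26-fold (1.08 to 1.45) in MTF2. They were at 1.28 (1.11 to 1.47) and 1.05-fold (0.908 to 1.22) in JARID2.

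The gap of 18 kb between the Tfap2b block and the downstream block was higher than the other long gaps. It stood at 1.62-fold (1.32 to 1.96) in MTF2 and 2.11-fold (1.79 to 2.46) in JARID2, and its JARID2 interval lay above those of all 5 other long gaps. JARID2 was 3.77-fold (2.58 to 5.32) in the first 2 kb after the Tfap2b block, 1.88-fold (1.21 to 2.80) at 3 to 5 kb and 1.79-fold (1.27 to 2.46) at 6 to 10 kb. Before the Tfap2b block it was 2.00-fold (1.17 to 3.20) in the last 2 kb and 1.02-fold (0.543 to 1.74) at 3 to 5 kb. At 6 to 10 kb before the block it was 0.894-fold (0.538 to 1.40). MTF2 was 1.57, 1.43 and 1.31-fold at these distances after the block and 1.71, 1.14 and 0.627-fold before it. In both libraries the intervals before and after the block overlapped at each distance.

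All gap bins together held 1.21 times the expected MTF2 reads (1.13 to 1.30) and 1.15 times the expected JARID2 reads (1.08 to 1.22). In uncalled bins within 1 Mb on either side these levels were 1.07 (1.04 to 1.09) and 0.755 (0.736 to 0.773). The gaps thus held more reads of both libraries than the surrounding chromosome, in part through the gaps between close blocks. In JARID2 the gaps near the chromosome 1 background also had intervals above this local level, except the gap of 43 kb. The 3 wide blocks made up 10.9% of the locus and held 66.4% of its JARID2 reads (64.7 to 68.04) and 35.8% of its MTF2 reads (33.2 to 38.4). At 3.51 expected MTF2 reads per bin, 1 read is worth 0.285-fold, so a difference of a few MTF2 reads between single bins was not detectable at this depth.

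**Figure D5:**
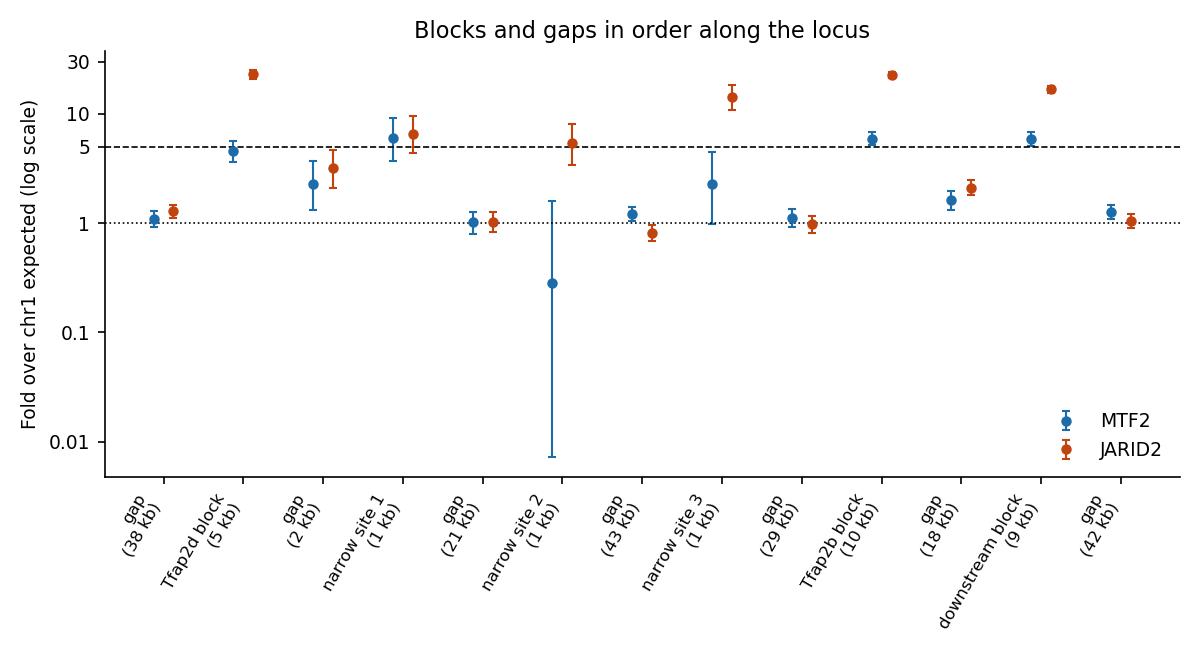
Fold over expected of each block and gap in their order along the locus, on a log axis, for MTF2 and JARID2, with exact 95% counting intervals. The dotted line is 1-fold and the dashed line 5-fold. The wide blocks stand at 16.7 to 22.9-fold in JARID2 and 4.56 to 5.93-fold in MTF2, and the gap before the downstream block at 2.11 and 1.62-fold.

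Among all called regions, the JARID2 regions at both genes ranked high by width and by fold. The JARID2 region of the Tfap2b block, 10 kb wide, was wider than 98.9% of 27525 JARID2 regions, and its fold was above that of 91.1%. The JARID2 region of the Tfap2d block was wider than 95.4% and above 91.5% in fold. The JARID2 regions of the downstream block, of 4 and 3 kb, were wider than 92.4% and 85.2% and above 90.8% and 86.5% in fold. The MTF2 region of the downstream block, 8 kb wide, was wider than 93.4% of 2008 MTF2 regions, though its fold of 6.09 exceeded only 39.3% of them. In MTF2 the Tfap2b block was split into regions of 4 and 2 kb, at 8.05 and 7.55-fold, by the bins under the main JARID2 peak. These percentiles describe regions that were known when the locus was chosen.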

How the data were processed

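The deposited files list aligned reads as genome intervals, with a start and an end (other values, 1 line per read) of 52 bp in MTF2 and 36 bp in JARID2. A deposited score per read ran from 0 to 10 in MTF2 and was 1000 throughout in JARID2, with its meaning not given in the sources used here. Per the labels' protocols, libraries were amplified with 15 PCR cycles. The aligner, build and read filters are likewise not given. The deposited totals were 10986401 and 14465269 reads.

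Of reads that shared chromosome, strand and 5' position, 1 was kept and moved downstream by 70 bp (MTF2) or 100 bp (JARID2). They were counted in 1 kb bins. The expected count was the chromosome mean over bins with a read in either library, up to the 99th percentile. A called bin had a Poisson upper-tail p, adjusted by Benjamini-Hochberg over all bins, of at most 0.001, at least 5-fold, and at most 90% of reads on 1 strand. The caller was tested on simulated independent Poisson counts, which is the model it assumes, so spread beyond Poisson was not covered. It compares bins within 1 library, so no p is printed. Poisson intervals were used for folds and Clopper-Pearson intervals for shares and ratios, and repeat PCR reads are not independent molecules. The genes, the locus and the lists were chosen with earlier results of these data known. The rule for naming covered both genes and every block. Python 3.11.15, numpy 2.4.6 and scipy 1.17.1 were used.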

Additional observations from a re-analysis of the deposited data

How the results depend on the processing

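Over 15 results, 86 values under alternatives were computed. Of these, 14 moved by over 1.5 times (counts) or out of the counting interval (folds and ratios), and 72 did not. Reversals were not scored. Only the removal of bins where repeats reached 3 deposited reads per kept read was chosen after the data were seen, and it left 15 MTF2 bins, 24 JARID2 bins and 5 blocks. The number of blocks, 6 in the report, was also 5 with bins moved by 500 bp, the mean over all bins, 10-fold or joining up to 3 kb. It was 7 with the median bin, the local background or MTF2 scores above 0. A threshold of 10-fold left 1 MTF2 and 16 JARID2 bins, and bins of 500 bp left 9 kb called in MTF2, where fewer reads per bin raise the calling limit. With all deposited reads, JARID2 in the Tfap2b block was 26.04-fold. With the chromosome mean taken over all bins, JARID2 was 18.98-fold in the Tfap2d block, 18.6-fold in the Tfap2b block and 0.951-fold in the gaps. With the median bin as background, MTF2 was 6.93-fold in the Tfap2b block and 1.42-fold in the gaps. With the 1 Mb on either side as background, the JARID2 folds were 30.98, 30.4 and 1.55. With folds in place of kept reads, the JARID2 to MTF2 ratio was 3.79 in the Tfap2b block and 2.82 downstream. The cause was not tested where the setting does not itself change the denominator or the bins. No paired analysis was possible because each factor has 1 library. At this depth, 5-fold is 18 MTF2 or 22 JARID2 reads per bin, and MTF2 was not thinned at random. Its depth was lowered only by keeping scores above 0, as 39.3% of MTF2 reads had a score of 0. That setting called 12 MTF2 bins. With JARID2 thinned to the MTF2 depth, 26 JARID2 bins were called.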

Other observations

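On chromosome 1, divided into 867 windows of 220 kb with reads in at least 90% of their bins, the median window held 0 bins called in MTF2 and 2 called in JARID2. As many called bins as in the locus, or more, were held by 3 windows in MTF2 and 10 windows in JARID2, a description of a locus that was chosen for its blocks. The share of MTF2 reads with a deposited score of 0 was 37.3% (32.9 to 41.8) in the wide blocks, 44.04% (40.6 to 47.5) in the gaps and 42.7% (42.5 to 42.8) in uncalled bins of chromosome 1. Across the 24 bins of the wide blocks, Pearson's r of the log2 reads of MTF2 and JARID2 was 0.0690 and Spearman's rho 0.108. Across all 220 bins they were 0.519 and 0.354. The bins share a library and neighbours overlap in fragments, so these values are given without a test.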
